A study of Mus musculus with 10 samples.

Results

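The replication-dependent histone genes were examined for open chromatin in mouse colon organoids. They were taken as the protein-coding genes of the GENCODE M21 annotation (GRCm38) whose symbols begin with Hist1h, Hist2h, Hist3h or Hist4h. This gave 67 of 21938 protein-coding genes, of which 54 lie on chromosome 13, 10 on chromosome 3, 2 on chromosome 11 and 1 on chromosome 6. By family they comprised 6 genes for the linker histone H1, 18 for H2A, 18 for H2B, 12 for H3 and 13 for H4.

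Each nucleosome is built from the core histones H2A, H2B, H3 and H4, and linker histone H1 binds the DNA where it enters and leaves. The genes described here supply these proteins in bulk while DNA is copied, are transcribed mostly in S phase at nuclear histone locus bodies organised by NPAT, and give short mRNAs that end in a stem-loop in place of a poly(A) tail. A few of them (Hist1h1t, Hist1h2aa and Hist1h2ba) encode forms made in the male germ line. In the colon, dividing cells sit in the lower crypt, and organoids grown from crypts keep such cells while Wnt signals are supplied.

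Open DNA was mapped by Omni-ATAC-seq, in which a transposase cuts accessible chromatin, in 10 libraries from sorted live organoid cells. Wild type (WT) and AHR KO organoids came from crypts of the whole colon of C57BL/6 mice. The AHR KO mice carried Vil-Cre, a Cre driven by the Villin promoter, which acts in intestinal epithelium, and Ahr fl/fl alleles, and WT mice were littermates. Ahr encodes the ligand-activated aryl hydrocarbon receptor. Organoids were kept in WENR medium, which supplies Wnt3a, EGF, Noggin and R-spondin together with small-molecule inhibitors and nicotinamide. Or they were moved for 4 days to ENR medium (d4 ENR), in which they differentiate. ENR lacks Wnt3a, the inhibitors and the nicotinamide, so a difference between the media is not one of Wnt3a alone. There were 2 WT WENR, 3 AHR KO WENR, 3 WT d4 ENR and 2 AHR KO d4 ENR libraries. No label ties a library to a mouse or culture, so a p-value measures only the spread between these libraries, which may be technical. The comparisons asked how accessibility over the histone genes differed with the medium and with the loss of AHR.

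The deposited values are the regions called open (peaks) in each library, with no counts per region. The unit used throughout is therefore the number of bases covered by peaks, over a gene with 1 kb on each side or over a cluster. A base outside a peak was not called open, which does not make it closed. WENR libraries held 41686181 to 49126792 sequenced fragments and d4 ENR libraries 30354729 to 36307860, so depth did not overlap between the media. Mean fragment length was 235 to 255 bases in WENR. It was 200, 156 and 172 bases in WT d4 ENR and 221 and 202 in AHR KO d4 ENR. The part of depth and fragment length in the results was not tested. WENR libraries held 61485 to 65308 peaks and 63.0 to 68.6% of the fragment coverage inside them, and d4 ENR libraries held 33433 to 58359 peaks and 14.1 to 44.2%. WT d4 ENR replicate 1 stood lowest in both measures. Within d4 ENR the share inside peaks was 14.1, 24.4 and 30.9% in WT and 33.8 and 44.2% in AHR KO, so the quality of the libraries moved with both medium and genotype. Its part in the results was not tested. Fewer cells with an open site and less opening per cell cannot be told apart in such bulk libraries. All 10 epithelial marker genes examined, among them Vil1, Cdx2 and Cdh1, carried a peak in all 10 libraries, as did 0 of 5 leukocyte, 3 of 5 fibroblast and 1 of 4 endothelial markers and 81.2% of all genes with any peak. The start was covered in all 10 libraries for 7 epithelial markers and for 0 of the others. Covered bases over Ahr were 1216 to 2544 in WT and 3250 to 6703 in AHR KO libraries, which is no check of the deletion, since the position of the floxed part is not given in the sources used here.

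Most H2A and H2B genes stand head to head and share the DNA between their starts. Of 12 such pairs with starts at most 500 bases apart, 9 were spanned by a single peak in all 10 libraries and 3 held no peak in any library. Among all protein-coding head-to-head pairs at that distance, 627 of 684 (91.7%) were spanned in all 10. The DNA between the starts is shown for a spanned pair that holds a TATA box, CCAAT boxes and an octamer (Hist1h2ac and Hist1h2bc), for the pair whose members lost most covered bases in d4 ENR (Hist1h2bf and Hist1h2ad), and for the 3 pairs with no peak. Sequences were read from the RefSeq GRCm38.p6 genome, 5′ to 3′, between the inner annotated starts. Capitals mark TATAAA (the TATA box), CCAAT (bound by NF-Y), ATTTGCAT (the octamer bound by Oct1) and AAACACA (the H1 box), or their reverse complements. The names stand here for these exact letters at any distance from a start, which need not be a working element. Other forms of the boxes were left unmarked.
Hist1h2ac to Hist1h2bc, chr13:23683960-23684198, plus strand: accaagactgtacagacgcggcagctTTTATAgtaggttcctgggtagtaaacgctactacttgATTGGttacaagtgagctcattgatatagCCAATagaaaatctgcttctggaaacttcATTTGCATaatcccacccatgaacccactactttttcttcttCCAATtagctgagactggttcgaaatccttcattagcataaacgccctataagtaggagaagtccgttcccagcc
Hist1h2bf to Hist1h2ad, chr13:23574208-23574380, plus strand: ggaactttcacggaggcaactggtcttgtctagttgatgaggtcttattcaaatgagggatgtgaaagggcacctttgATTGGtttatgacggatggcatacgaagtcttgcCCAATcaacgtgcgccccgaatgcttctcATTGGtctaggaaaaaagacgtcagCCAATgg
Hist1h2ba to Hist1h2aa, chr13:23934157-23934436, plus strand: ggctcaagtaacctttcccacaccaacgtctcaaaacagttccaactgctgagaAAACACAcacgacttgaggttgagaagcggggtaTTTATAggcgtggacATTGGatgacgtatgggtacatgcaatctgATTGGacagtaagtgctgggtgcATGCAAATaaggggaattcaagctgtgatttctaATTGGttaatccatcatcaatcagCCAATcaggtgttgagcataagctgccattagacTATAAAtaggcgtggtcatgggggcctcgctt
Hist1h2bq to Hist1h2ao, chr13:21810200-21810366, plus strand: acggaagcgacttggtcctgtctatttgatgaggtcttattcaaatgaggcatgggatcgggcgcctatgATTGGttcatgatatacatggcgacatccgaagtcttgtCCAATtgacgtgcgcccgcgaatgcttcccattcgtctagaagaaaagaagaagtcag
Hist1h2ap to Hist1h2br, chr13:21833508-21833742, plus strand: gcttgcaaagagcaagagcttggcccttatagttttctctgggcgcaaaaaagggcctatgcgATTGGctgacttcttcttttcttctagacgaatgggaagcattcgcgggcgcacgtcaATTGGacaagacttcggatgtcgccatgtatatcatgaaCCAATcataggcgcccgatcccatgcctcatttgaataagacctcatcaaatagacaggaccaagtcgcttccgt

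All 3 pairs without a peak held CCAAT boxes, and the copied pairs held none of the other motifs in these letters. The testis pair Hist1h2ba and Hist1h2aa held 2 TATA boxes, 4 CCAAT boxes, 1 octamer and 1 H1 box, against 1 TATA box, 3 CCAAT boxes and 1 octamer in the open Hist1h2ac and Hist1h2bc pair. The open pair Hist1h2bf and Hist1h2ad held 4 CCAAT boxes and neither a TATA box nor an octamer in these letters. The other two intervals without a peak are copies of each other in opposite orientation. The 167 bases shown for Hist1h2bq and Hist1h2ao matched the other copy over their whole length (100% identity), so a read from one cannot be placed with certainty. A match is a description of the sequence and not a bound site.

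For the genes with a promoter of their own, the 150 bases before the RefSeq start are shown for a linker gene that was open and its testis relative that was not, and for the H3 and H4 genes on chromosome 13 with the highest fold enrichment. Capitals are as above. In Hist1h4m the marked TATAAA lies near the 5′ end of the 150 bases, far from the start.
Hist1h1b, chr13:21780626-21780775, minus strand: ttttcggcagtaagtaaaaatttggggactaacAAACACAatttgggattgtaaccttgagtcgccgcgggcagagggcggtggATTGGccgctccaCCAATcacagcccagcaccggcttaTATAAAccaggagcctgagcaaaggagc
Hist1h1t, chr13:23695661-23695810, plus strand: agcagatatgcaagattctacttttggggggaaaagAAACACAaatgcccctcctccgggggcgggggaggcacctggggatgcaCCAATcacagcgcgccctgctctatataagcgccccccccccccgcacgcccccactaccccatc
Hist1h3e, chr13:23562386-23562535, minus strand: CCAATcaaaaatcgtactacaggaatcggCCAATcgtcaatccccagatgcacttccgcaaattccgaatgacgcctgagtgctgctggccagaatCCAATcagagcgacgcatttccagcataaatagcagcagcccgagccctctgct
Hist1h4m, chr13:21811596-21811745, plus strand: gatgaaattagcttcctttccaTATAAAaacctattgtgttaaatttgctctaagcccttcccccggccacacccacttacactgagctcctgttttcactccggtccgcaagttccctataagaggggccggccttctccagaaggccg

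RefSeq promoters (GRCm38.p6) were given for 62 of the 67 genes. In the 250 bases before the start, read on both strands, a CCAAT box stood in 82.3% of the histone promoters and in 36.3% of 17492 protein-coding promoters. TATAAA stood in 46.8% against 12.4%, and the octamer in 21% against 1.61%. The families differed in what they held. CCAAT stood in every H1, H2A and H2B promoter given and in 25% of the 12 H4 promoters. The octamer was found in 7 of 18 H2A and 6 of 16 H2B promoters and in none of the H1, H3 or H4 promoters. The H1 box stood in 5 of 6 H1 promoters and in 14.5% of all histone promoters, against 5.44% of protein-coding promoters. The promoters of a head-to-head pair overlap, so they are not independent.

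Histone genes were open in all 4 groups. A peak lay over the gene with 1 kb each side in at least 1 library for 63 of the 67 genes, and in all 10 libraries for 61, which is 96.8% of the 63. The background was 81.2% of the 16476 genes that had a peak in any library. The number of histone genes with a peak was 63 in 8 libraries and 62 in WT d4 ENR replicates 1 and 2. The gene start itself was covered in all 10 libraries for 55 of 67 histone genes (82.1%) and for 45.5% of all protein-coding genes. The windows of neighbouring histone genes overlap and share peaks, and together formed 34 separate windows.

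**Figure D1:**
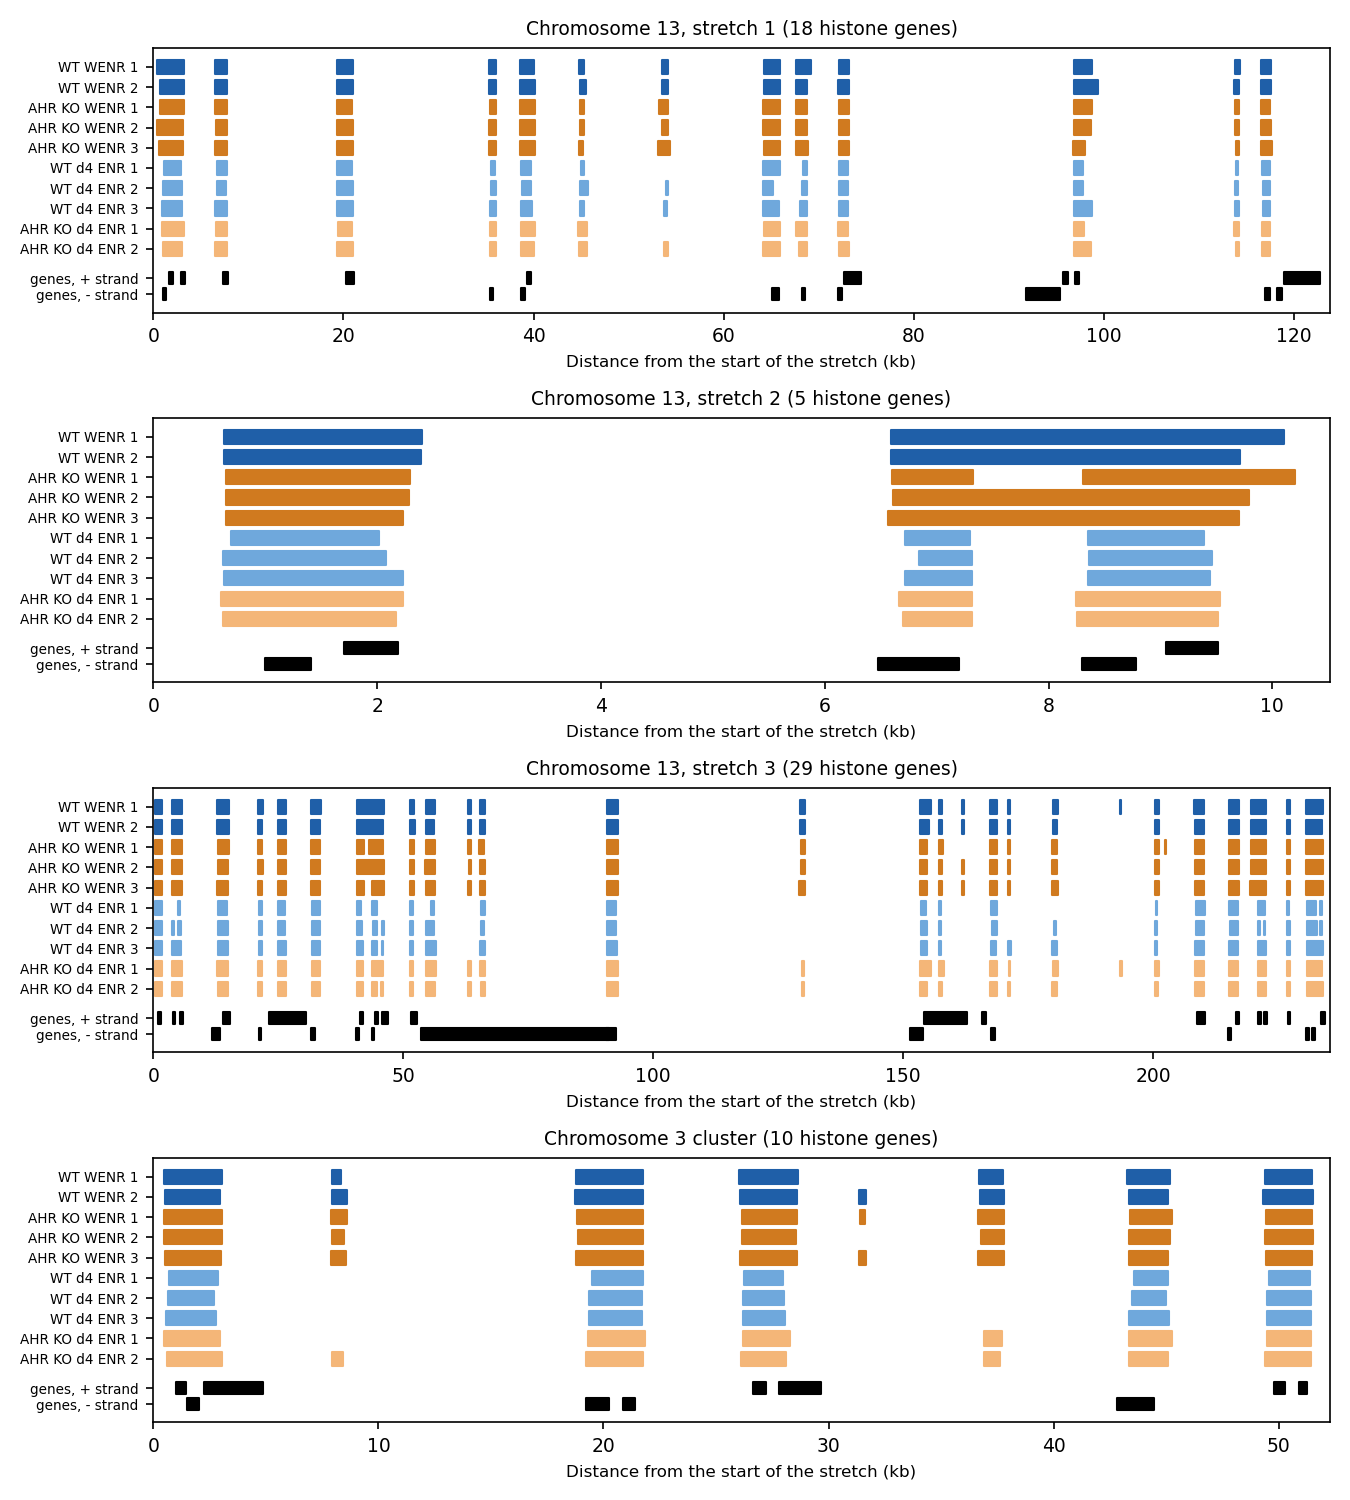
Peaks of each of the 10 libraries (rows, coloured by group) over 3 stretches of the chromosome 13 cluster and over the chromosome 3 cluster, drawn by distance in kb from the start of each stretch, with the histone genes of each strand in black below. Most histone genes lie under a peak in every group, and the genes without a peak over the start at the right of stretch 1 include the copied Hist1h2bq, Hist1h2ao, Hist1h2ap and Hist1h2br.

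Around the starts, the histone genes formed a broader open region than genes in general. In each WENR library 59 of the 67 starts (88.1%) were covered, against 55.2 to 56.0% of all protein-coding starts. In d4 ENR libraries 56 to 59 histone starts were covered, against 46.8 to 52.9% of all starts. Counted once for each covered start, the peaks over histone starts had a median width of 1891 to 2188 bases in WENR and 1215 to 1751 bases in d4 ENR. Those over all starts had 1295 to 1349 and 986 to 1277 bases. A wide peak over several starts counts several times in these medians, and more so for histone genes. In WENR 12100 to 12289 starts of all genes lay under 10834 to 11014 separate peaks. Only 35 to 40 separate peaks per library covered these histone starts, because single peaks reached over several genes. At 1000 bases before the start, 42.5% of histone genes were covered in WT WENR and 25.4% in WT d4 ENR, with 40.8% and 31.3% in the AHR KO groups. Of all protein-coding genes, 8% and 4.2% were covered there in WT, and 8% and 6.46% in AHR KO, so coverage fell in both sets.

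**Figure D2:**
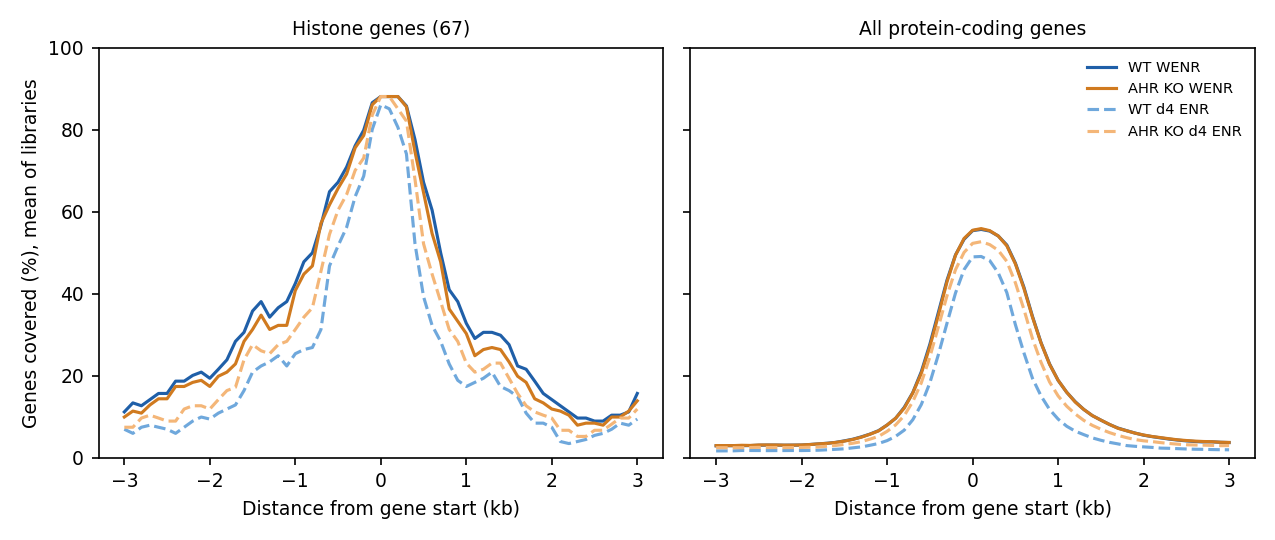
Share of genes (%) whose position at each distance from the gene start (kb, negative before the start) lay inside a peak, as the mean over the libraries of each group, for the 67 histone genes (left) and all 21938 protein-coding genes (right). At the start itself 86.1 to 88.1% of histone genes were covered in the 4 groups, against 49 to 55.5% of all genes, and the curves of the d4 ENR groups are narrower.

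The peaks over histone starts were not taller by the measure of the peak caller. The fold enrichment given by the peak caller sets the pileup of a peak against the local background. Counted once for each covered start, it had a median of 3.83 to 3.89 over histone starts in WENR and 3.86 to 5.06 in d4 ENR. Over all protein-coding starts it was 5.29 to 5.59 and 4.35 to 5.91. The caller takes that background from up to 10 kb around, a distance that in these clusters holds other open histone genes. No test was made of these medians. On chromosome 13 the highest mean over the 10 libraries was 7.29, at the peak over Hist1h4m, an H4 gene, which also reached into the window of Hist1h2ao. The lowest among histone genes with a peak was 2.58, at the H3 gene Hist1h3i. Among chromosome 13 genes, the linker gene with the lowest value was Hist1h1b (3.27) and the H4 gene with the lowest was Hist1h4k (2.89). The highest H3 value was that of Hist1h3e (5.67) and the highest H2B value that of Hist1h2bp (6.13).

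The 4 genes with no peak in any library were the testis pair Hist1h2aa (H2A) and Hist1h2ba (H2B) and the H2B genes Hist1h2bq and Hist1h2br. The testis pair lies alone, apart from the other chromosome 13 genes, at chr13:23932773-23935851 with its flanks, and 0 bases there were covered. No 50-base word around the starts of the testis pair occurred again within the cluster or 1 Mb on each side, and no wider search was made. Around the starts of Hist1h2bq and Hist1h2br 100% of the words occurred again, and the DNA within 250 bases of these starts was 99.2% identical between them. The H2A partners Hist1h2ao and Hist1h2ap had no covered start either, and the peaks within 1 kb of them lay over the H4 genes Hist1h4m and Hist1h4n. Those H4 genes are also near-identical copies (99.8%), with 88.9% and 90.9% of their words repeated, and both carried a peak over the start in all 10 libraries. How reads with several placements were kept is not given in the sources used here, so the values of the copied genes are uncertain. The third testis gene, Hist1h1t for the linker histone of spermatocytes, had its start covered in none of the libraries. Its 195 to 210 covered bases in WENR were the edge of the peak over the neighbouring H4 gene Hist1h4c. The start of Hist1h1d, as GENCODE places it, was also never covered, and RefSeq starts this gene 1770 bases downstream.

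With the move from WENR to d4 ENR, the chromosome 13 cluster lost covered bases in both genotypes. The cluster was taken as 4 stretches of 372717 bases in all, in which neighbouring histone genes are at most 100 kb apart. WT WENR libraries had 63485 and 62191 covered bases and AHR KO WENR libraries 59139, 60708 and 59756. WT d4 ENR libraries had 37318, 40140 and 48473 and AHR KO d4 ENR libraries 53735 and 51391. Every d4 ENR library lay below every WENR library. Averaged over the genotypes, d4 ENR stood at 0.763 times WENR, a log2 ratio of -0.39 (2-sided exact permutation of the media within each genotype, p = 0.02, which is the smallest value that 100 arrangements allow; adjusted p = 0.04 over 10 cluster tests). Group means were 62838 ± 915 (SD, n = 2) and 59868 ± 790 (n = 3) bases in WENR, and 41977 ± 5800 (n = 3) and 52563 ± 1657 (n = 2) in d4 ENR, WT first.

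The number of peaks over the cluster hardly moved while their mean width fell. These were not all the same peaks. Some peaks of every WENR library were in no WT d4 ENR list, and some wide WENR peaks stood as several peaks in d4 ENR. Such splitting also lowers the mean width. There were 40 to 42 peaks in each WENR library and 37 to 42 in each d4 ENR library. Their mean width was 1552 ± 4.50 bases in WT WENR, 1461 ± 54.9 in AHR KO WENR, 1059 ± 135 in WT d4 ENR and 1267 ± 61.5 in AHR KO d4 ENR (SD; n = 2, 3, 3 and 2). The ratio of d4 ENR to WENR was 0.792 over stretch 1 (chr13:21714763-21838530, 18 histone genes), 0.680 over stretch 2 (chr13:22034164-22044676, 5 genes) and 0.761 over stretch 3 (chr13:23530050-23765406, 29 genes), and each gave p = 0.02 in the exact permutation test. The 3 stretches with peaks thus changed in the same direction.

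The chromosome 3 cluster (chr3:96218865-96271132, 52268 bases, 10 genes) also lost covered bases. It had 13648 and 13971 covered bases in WT WENR, 13935, 13427 and 13886 in AHR KO WENR, 9591, 9698 and 10173 in WT d4 ENR, and 11735 and 11976 in AHR KO d4 ENR. Its d4 ENR level was 0.783 times that of WENR, a log2 ratio of -0.35 (exact permutation test, p = 0.02, adjusted p = 0.04), and the media did not overlap. Part of this fall lay outside the histone genes. Over the histone genes with 1 kb each side alone, the log2 ratio was -0.21 (exact permutation test, p = 0.02). The cluster also holds Bola1, which is not a histone gene. All 10 libraries had 5 peaks over the histone genes themselves, which covered all 10 of those genes. The rest of the cluster had 2 or 3 further peaks in WENR libraries, none in WT d4 ENR libraries, and 1 and 2 in the AHR KO d4 ENR libraries.

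**Figure D3:**
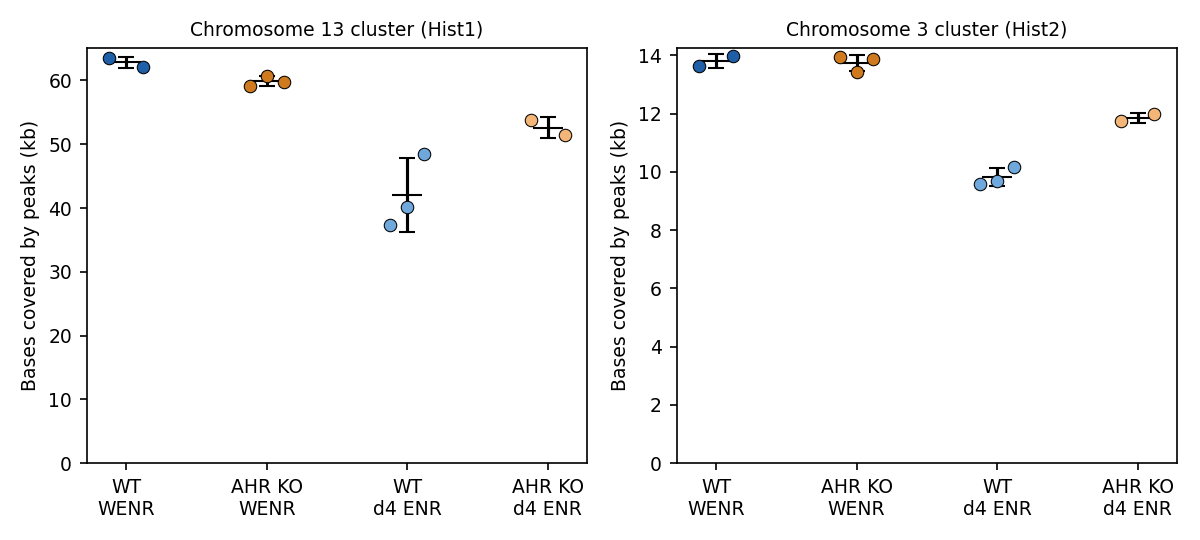
Bases covered by peaks (kb) over the chromosome 13 cluster (left) and the chromosome 3 cluster (right) in each library (points), with the mean and SD of each group (bars; n = 2, 3, 3 and 2). All d4 ENR points lie below all WENR points, and the AHR KO d4 ENR points lie above the WT d4 ENR points.

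The covered length of all peaks of the genome stood at 0.628 times WENR, a log2 ratio of -0.67 (exact permutation test, p = 0.02). The share of all covered bases that lay in the chromosome 13 cluster was 0.101 ± 0.00257% in WT WENR, 0.0936 ± 0.00414% in AHR KO WENR, 0.129 ± 0.0123% in WT d4 ENR and 0.109 ± 0.00906% in AHR KO d4 ENR. The log2 ratio of this share was 0.28 for chromosome 13 and 0.32 for chromosome 3 (exact permutation tests, p = 0.02, adjusted p = 0.04 in both). This result did not hold when each list was held to its 33433 most significant peaks, where the log2 ratios were 0.03 (exact permutation p = 0.32) and 0.06 (exact permutation p = 0.42).

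Gene by gene, 37 of the 63 histone genes with a peak (58.7%) had fewer covered bases in every d4 ENR than in every WENR library of the same genotype, in both genotypes, and 0 had more. Of all 16476 genes with a peak, 48.3% were lower by this rule and 0.322% higher. The same 37 had an adjusted p of 0.0411 (exact permutation test within genotypes, Benjamini-Hochberg over 16476 genes). That is the smallest value the test gave, and 8009 of the 16476 genes shared it. The test reaches it only where the media do not overlap in the same direction in both genotypes. It thus restates the rule and adds no further support. They lay in 23 separate windows. With lists of equal length 37 were lower, against 33.7% of genes. Over the gene body without its flanks only 12 of 60 histone genes (20%) were lower, against 45% of genes. Among genes with a peak in all 10 libraries, the median log2 change with the medium in WT was -0.31 for 61 histone genes and -0.58 for 13383 genes, and in AHR KO -0.06 and -0.18. Each window spans the whole gene and most histone genes are short, so these sets differ in window length. No comparison at equal length was made.

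**Figure D4:**
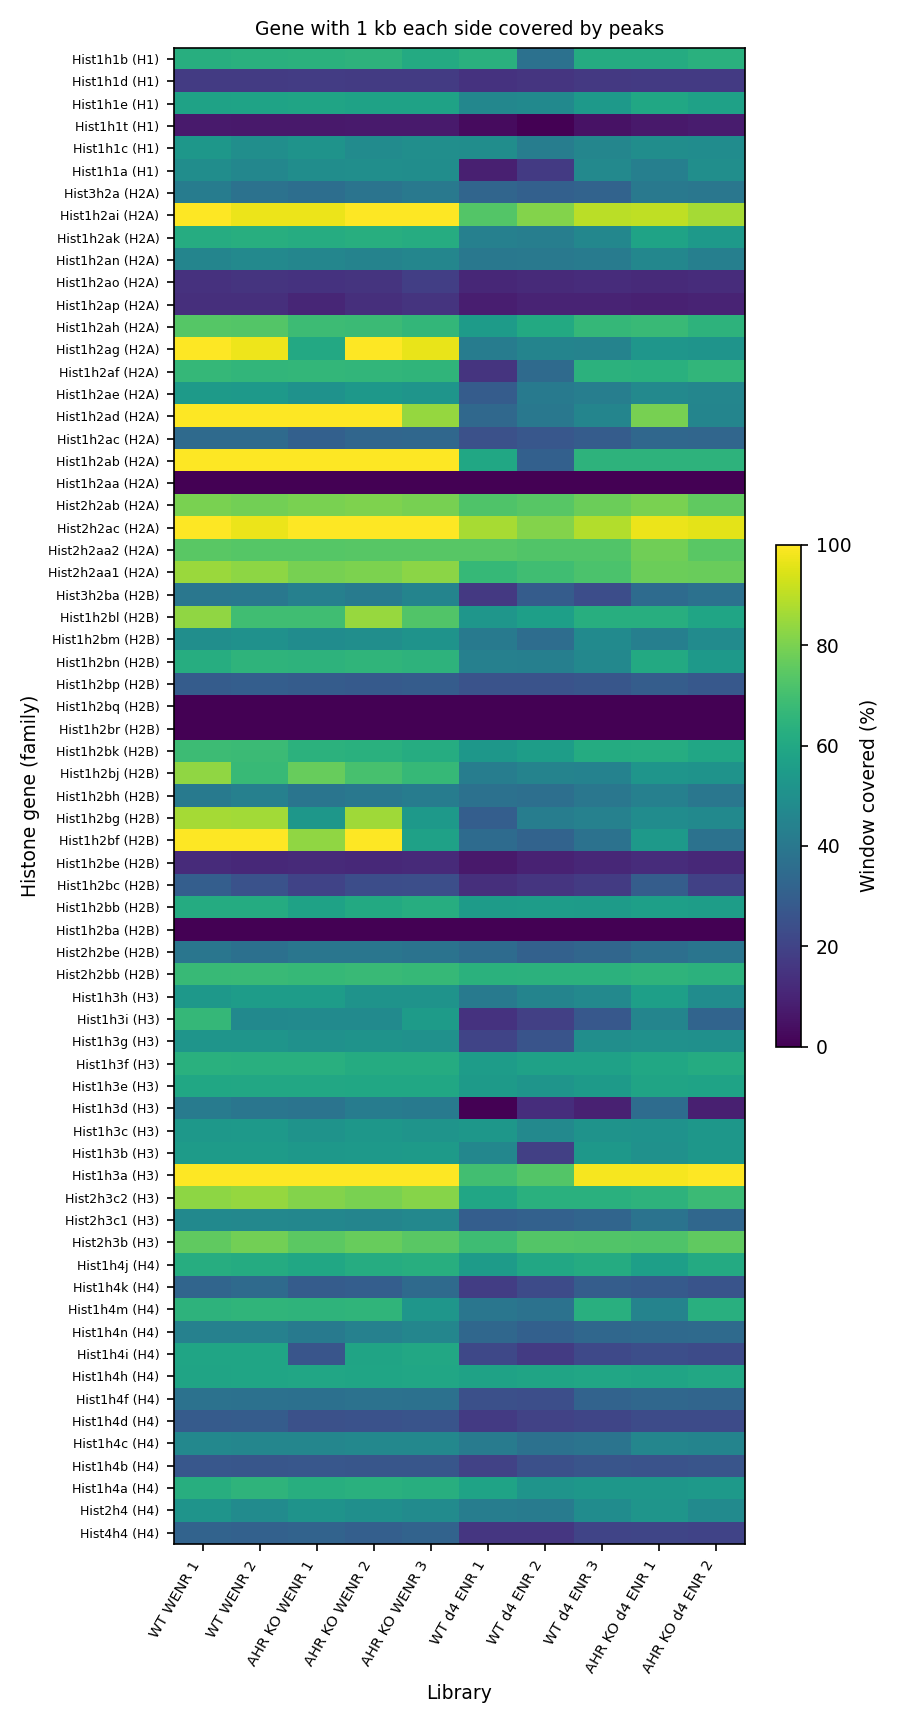
Share (%) of each histone gene with 1 kb each side that was covered by peaks in each library (columns), with genes in rows ordered by family and position. Rows at 0 throughout are Hist1h2aa, Hist1h2ba, Hist1h2bq and Hist1h2br, and rows such as Hist1h2ab, Hist1h2ad and Hist1h2ag are fully or nearly covered in most WENR libraries and not in d4 ENR.

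Among the linker histone genes, 1 of 6 was lower in d4 ENR, the gene Hist1h1d, against 48.3% of all genes. Hist1h1b had 1715 and 1736 covered bases in WT WENR and 1742, 1023 and 1688 in WT d4 ENR, with 1755, 1769 and 1678 and then 1683 and 1738 in AHR KO. Its media overlapped. Hist1h1e, which encodes an H1 of most dividing and resting cells, had 2257 to 2300 bases in the WENR libraries and 1812, 1871 and 2120 in WT d4 ENR, and its AHR KO d4 ENR values of 2337 and 2249 lay just above and just below the WENR range.

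Among the H2A genes, 10 of 17 with a peak were lower in d4 ENR, against 48.3% of all genes. Paired H2A and H2B genes share peaks, so these family counts are not of independent genes. Hist1h2ab was covered over its whole window in all 5 WENR libraries (2473 bases each). It had 1472, 759 and 1603 bases in WT d4 ENR and 1601 and 1603 in AHR KO d4 ENR. It fell by 1033 bases on average over the genotypes. Its adjusted p of 0.0411 (exact permutation test) is the smallest value, which every gene called lower shares. Hist1h2ad, which shares its promoter with Hist1h2bf, had 2572 bases in 4 WENR libraries and 2163 in AHR KO WENR replicate 3. In d4 ENR it had 865, 1029 and 1173 bases in WT and 2040 and 1171 in AHR KO. The values of its AHR KO d4 ENR libraries were thus far apart.

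Hist1h2ag, another H2A gene, had 2485 and 2418 bases in WT WENR and 1495, 2485 and 2407 in AHR KO WENR. It had 1045, 1122 and 1111 in WT d4 ENR and 1301 and 1288 in AHR KO d4 ENR. The peak over it ran on over Hist1h4i and Hist1h2bj in 4 of 5 WENR libraries, with a width of 3120 to 3514 bases, and these 3 genes had 2 peaks in AHR KO WENR replicate 1 and in all 5 d4 ENR libraries, the wider of 1041 to 1284 bases in d4 ENR. A single wide peak in most WENR libraries thus stood as separate narrower peaks in d4 ENR. A like change was seen over the 5 genes from Hist1h2ae to Hist1h3d, a run picked after the map was seen. They lay under 1 peak of 5283 to 5368 bases in both WT WENR libraries and AHR KO WENR replicate 2, under 2 peaks in the other two WENR libraries, and under 2 or 3 peaks in d4 ENR.

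Among the H2B genes, 9 of 15 with a peak were lower in d4 ENR, against 48.3% of all genes. Hist1h2bf fell by 1226 bases, the most of the 37 genes. It had 2461 bases in both WT WENR libraries, 2057, 2461 and 1407 in AHR KO WENR, 865, 784 and 932 in WT d4 ENR, and 1323 and 924 in AHR KO d4 ENR. Hist1h2bg, paired with Hist1h2ae, fell from 2265 and 2256 to 782, 1106 and 1155 bases in WT. In AHR KO it had 1383, 2240 and 1407 bases in WENR and 1270 and 1239 in d4 ENR. The H2B genes Hist1h2bp and Hist1h2bk did not pass. In AHR KO the media overlapped at Hist1h2bp and met at 1529 bases at Hist1h2bk.

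Among the H3 genes, 8 of 12 were lower in d4 ENR, against 48.3% of all genes. Hist1h3d had 1253 to 1369 bases in the WENR libraries and no peak at all in WT d4 ENR replicate 1. It had 0, 425 and 293 bases in WT d4 ENR and 1151 and 280 in AHR KO d4 ENR. Hist1h3i had 1603 and 1144 bases in WT WENR and 1150, 1153 and 1321 in AHR KO WENR, then 356, 461 and 668 in WT d4 ENR and 1096 and 779 in AHR KO d4 ENR. Hist1h3e, with the highest fold enrichment of the H3 genes on chromosome 13, was called by the same rule with a small change. It had 1685 to 1705 bases in WENR, 1474 to 1549 in WT d4 ENR and 1651 and 1645 in AHR KO d4 ENR.

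Among the H4 genes, 9 of 13 were lower in d4 ENR, against 48.3% of all genes. Hist1h4i had 1605 bases in both WT WENR libraries and 717, 1592 and 1634 in AHR KO WENR. It had 587, 472 and 598 in WT d4 ENR and 650 and 619 in AHR KO d4 ENR. Hist1h4d had 904 and 919 bases in WT WENR, 783, 793 and 821 in AHR KO WENR, 536, 618 and 657 in WT d4 ENR, and 723 and 716 in AHR KO d4 ENR. Hist1h4k, with the weakest H4 peak on chromosome 13, also passed, with no overlap within either genotype, from 676 to 799 bases in WENR to 424 to 681 in d4 ENR. Hist1h4m, with the strongest, did not, since its 1079 and 1516 bases in AHR KO d4 ENR reached into the AHR KO WENR values of 1265 to 1572.

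**Figure D5:**
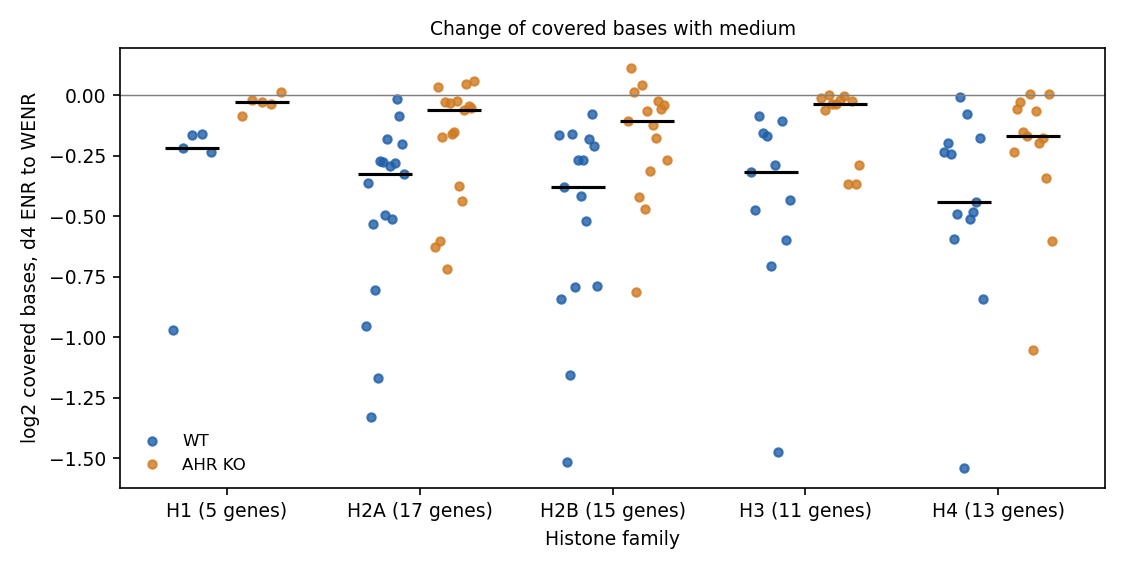
Log2 ratio of mean covered bases (gene with 1 kb each side) in d4 ENR to WENR for each histone gene with a peak in all 10 libraries (points), in WT and AHR KO, with the median of each family (lines). The family medians lie between -0.44 and -0.22 in WT and between -0.17 and -0.03 in AHR KO.

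In d4 ENR, AHR KO libraries had more covered bases than WT libraries over both histone clusters. The log2 ratio of AHR KO to WT was 0.33 over the chromosome 13 cluster and 0.27 over the chromosome 3 cluster, with no overlap between genotypes in either. With 3 libraries against 2 the exact permutation test cannot give a p below 0.2, and both gave p = 0.2. Over the histone genes with 1 kb each side alone, the log2 ratios were 0.28 on chromosome 13 and 0.14 on chromosome 3. All peaks of the genome together had a log2 ratio of 0.57. Of the 63 histone genes, 33 (52.4%) were higher in both AHR KO libraries than in all WT libraries and 0 were lower, against 52.7% and 0.243% of all genes tested. The share of histone genes was thus near the background. Without WT d4 ENR replicate 3, 54 (85.7%) were higher, against 72.8% of all genes without that library.

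The largest of these differences was at Hist1h2be, an H2B gene whose annotated span reaches over Hist1h1e. It had 2686, 3704 and 4330 covered bases in WT d4 ENR and 4932 and 4557 in AHR KO d4 ENR, a difference of 1171 bases. At Hist1h2bc the values were 1454, 1643 and 1849 against 3169 and 2063, a difference of 967 bases that rested mostly on AHR KO d4 ENR replicate 1. At the H3 gene Hist1h3g they were 516, 661 and 1253 against 1276 and 1266, and at Hist1h3i the difference was 442.5 bases. WT d4 ENR replicate 3 was the WT library nearest to AHR KO at all 4 of these genes. At the linker gene Hist1h1e the difference was 359 bases.

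In WENR the cluster levels of the genotypes were closer together. Over the chromosome 13 cluster the log2 ratio of AHR KO to WT was -0.07 with no overlap, AHR KO being lower (exact permutation p = 0.2, the smallest possible), and over the chromosome 3 cluster it was -0.01 (exact permutation p = 0.8). All peaks of the genome had a log2 ratio of 0.04. Only 1 of the 63 histone genes (1.59%) was higher in all AHR KO libraries, against 11.6% of all genes, and 14 (22.2%) were lower, against 10.9%. Those 14 lay in 10 separate windows. Both counts moved when a library was left out, as did the shares of all genes. Each time the histone share stayed below that of all genes for higher and above it for lower. Without WT WENR replicate 1 or 2, 8 and 5 histone genes were higher, against 21.6 and 26.1% of all genes, and 21 and 23 were lower, against 24.3 and 22.2%. Without AHR KO WENR replicate 1, 2 or 3, 1, 3 and 5 were higher, against 20.9, 20.2 and 14.3%. In the same order 18, 20 and 18 were lower, against 16.1, 14.1 and 22%.

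The gene higher in AHR KO in WENR was Hist3h2ba, an H2B gene on chromosome 11, with 1034 and 1051 covered bases in WT and 1137, 1089 and 1184 in AHR KO. The largest differences the other way were at Hist1h2bg, with 2265 and 2256 against 1383, 2240 and 1407 bases, and Hist1h2bc, with 3197 and 2714 against 2161, 2517 and 2574. The H2A gene Hist1h2ah and its partner Hist1h2bk had differences of -139 and -126 bases (AHR KO minus WT), and Hist1h4d had -112.5. At Hist1h2bg the third AHR KO library, replicate 2, lay close to WT.

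Over the chromosome 13 cluster the genotypes stood in opposite order in the media. The log2 ratio of AHR KO to WT was 0.40 higher in d4 ENR than in WENR (exact permutation test within media, p = 0.02, the smallest possible, adjusted p = 0.04). The null of this test is no genotype difference in either medium, so it does not test whether the differences are equal. Over the chromosome 3 cluster the ratio was 0.28 higher in d4 ENR (exact permutation p = 0.08, adjusted p = 0.133), and over all peaks of the genome 0.53 higher (exact permutation p = 0.18). The chromosome 3 difference passed with lists of equal length and over the member genes only (0.17 and exact permutation p = 0.02 in both) and without WT WENR replicate 1 (0.30, exact permutation p = 0.05). The WT d4 ENR libraries also had the lowest shares of coverage inside peaks, whose part in this difference was not tested.

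The 10 chromosome 3 genes all had their starts covered in all 10 libraries. Of these, the H3 genes Hist2h3c2 and Hist2h3c1 lost most and fell by 547 and 504 bases. Hist2h3c2 had 2505 and 2546 bases in WT WENR, 2454, 2413 and 2476 in AHR KO WENR, 1790, 1919 and 1912 in WT d4 ENR, and 1955 and 2055 in AHR KO d4 ENR. The media did not overlap, and the genotypes lay close together in d4 ENR. Around the starts of Hist2h3c1, Hist2h3c2, Hist2h2aa1 and Hist2h2aa2, 79.9 to 88.9% of the 50-base words are repeated nearby, so their separate values are uncertain. Of the other genes of the cluster, the H2A genes Hist2h2aa1 and Hist2h2ac and the H2B gene Hist2h2bb were lower in d4 ENR. Hist2h2aa2, Hist2h2ab, Hist2h2be, Hist2h3b and the H4 gene Hist2h4 did not pass, with 1839 to 1982 bases at Hist2h2aa2 over all 10 libraries.

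Of the 3 genes outside the large clusters, 2 were lower in d4 ENR, against 48.3% of all genes. Hist4h4, an H4 gene and the only gene of the set on chromosome 6 (chr6:136801553-136804415), had 1540 and 1502 covered bases in WT WENR, 1545, 1472 and 1541 in AHR KO WENR, 777, 774 and 994 in WT d4 ENR, and 1022 and 982 in AHR KO d4 ENR. Its d4 ENR values lay below all WENR values. On chromosome 11, Hist3h2ba fell by 316 bases, with 431, 764 and 619 bases in WT d4 ENR and 913 and 974 in AHR KO d4 ENR. Its neighbour Hist3h2a, an H2A gene, had 1357, 1269 and 1323 bases in WT d4 ENR and 1675 and 1639 in AHR KO d4 ENR, which lay within or above the AHR KO WENR range of 1500 to 1673.

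Genes that serve the same chromatin were open too. Of 11 replication-independent histone genes, which supply variants outside S phase, all had a peak and 9 had one in all 10 libraries, against 81.2% of all genes with any peak. Of these 11, 7 were lower in d4 ENR, against 48.3% of all genes, among them H3f3a for the variant H3 of transcribed genes. H3f3a had a mean of 3902 ± 199 covered bases in WT WENR, 3484 ± 409 in AHR KO WENR, 1375 ± 63.5 in WT d4 ENR and 2296 ± 578 in AHR KO d4 ENR (SD; n = 2, 3, 3 and 2). All 18 regulators of histone transcription and mRNA ends had a peak in all 10 libraries, and 7 of them were lower in d4 ENR, against the same 81.2% and 48.3% of all genes. Npat, the organiser of histone locus bodies, and Slbp, which binds the stem-loop, were not among these. Npat had 1578 and 1640 bases in WT WENR, 1589, 1548 and 1588 in AHR KO WENR, 1203, 1238 and 1407 in WT d4 ENR, and 1576 and 1509 in AHR KO d4 ENR.

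A family of receptor genes that lies among the histone genes was mostly without peaks. Between the first and last histone gene of chromosome 13 lie 36 vomeronasal receptor genes, which are used in the sensory neurons of the vomeronasal organ. Only 6 of them had a peak in any library and none had one in all 10, and the start was covered in no library for 35.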

How the data were processed

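Omni-ATAC-seq libraries of mouse colon organoids were sequenced in pairs. Per the file headers, the authors ran MACS 2.2.7.1 on every library by itself, calling broad regions (BAMPE, no control, duplicates kept, q 0.1 for broad and 0.05 for strong regions, local background over 10 kb), after trimming, BWA alignment to GRCm38 and filtering of reads. The deposited lists give each peak's position, its pileup (a coverage signal), its fold enrichment (a ratio to local background), and −log10 p-value and −log10 q-value. They hold no counts, so the count test of the study could not be made.

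Covered bases were summed over each gene with 1 kb each side (GENCODE M21) and over the clusters. The members, gene lists and tests were chosen with earlier results of these data known. Groups came from the labels. Cluster log2 ratios were tested with exact 2-sided permutation tests (2 times the smaller tail), with medium labels permuted within genotype or genotype labels within medium (100 arrangements) and with 10 arrangements for genotype within a medium. A gene was called when the groups compared did not overlap, and medium was tested per gene with Benjamini-Hochberg adjustment over 16476 genes. Scripts (Python 3.11.15, numpy 2.4.6, pandas 2.3.3) were tested on simulated data. The precision rests on the number of libraries and on their peak calls, which depend on depth. Genes were named when they lay outside chromosome 13, had the highest or lowest mean fold enrichment of their family on chromosome 13, had a peak in fewer than 10 libraries, were testis forms, or showed one of the 5 largest changes by medium, or by genotype within a medium, among genes whose groups did not overlap. Other genes, Hist1h1d among them, were named as neighbours or after their values were seen. Leukocyte, fibroblast and endothelial markers with any peak numbered 2 of 5, 4 of 5 and 4 of 4. Alternatives tried were lists of equal length, −log10 q of at least 5, the gene alone or with 5 kb, the whole span, member genes only, the replicate block, and each replicate left out.

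Sequences came from the RefSeq GRCm38.p6 promoter table and genome. All 59 promoters given on chromosomes 3 and 13 were identical to the genome at their coordinates.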

Additional observations from a re-analysis of the deposited data

Results flagged for a closer look

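The difference between the genotypes over the chromosome 13 histone cluster had opposite signs in the media. The test used has no genotype difference in either medium as its null, so it does not test equal differences in both. The log2 ratio of AHR KO to WT covered bases was 0.33 in d4 ENR and -0.07 in WENR, and the difference between these was 0.40 (exact permutation test within media, 2-sided, p = 0.02, the smallest that 100 arrangements give). Covered bases were 37318, 40140 and 48473 in WT d4 ENR and 53735 and 51391 in AHR KO d4 ENR. They were 63485 and 62191 in WT WENR and 59139, 60708 and 59756 in AHR KO WENR, so the genotypes stood in opposite order in the 2 media. All peaks of the genome had log2 ratios of 0.57 in d4 ENR and 0.04 in WENR, which differed by 0.53 (exact permutation p = 0.18), so nothing here sets the cluster apart from the genome. The share of fragment coverage inside peaks moved the same way in d4 ENR (14.1 to 30.9% in WT, 33.8 and 44.2% in AHR KO) and was 63.0 and 66.5% in WT and 67.2 to 68.6% in AHR KO in WENR. Its part in the difference was not tested.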

How the results depend on the processing

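Of 81 recomputed tests that could reach the threshold, 75 kept their direction and their side of it. Another 44 tests could not reach it whatever the values, as with genotype within a medium, and say nothing of stability. Of 49 recomputed counts, 39 stayed within 1.5 times the reported count. With the replicate block, which leaves 16 arrangements and no exact p below 0.125, the log2 ratios were -0.44 (chromosome 13, medium), 0.51 (chromosome 13, genotype by medium), 0.29 (chromosome 13 share), -0.36 (chromosome 3, medium) and 0.38 (chromosome 3 share), and 58 and 6 histone genes were higher in AHR KO in d4 ENR and WENR. No label says whether the replicate numbers pair the libraries, and the main tests treat them as unpaired. Deviations of same-numbered libraries correlated at -0.00 and 0.03 in WT and -0.01 and -0.02 in AHR KO. Such values cannot decide whether same-numbered libraries share a mouse or culture. With lists of equal length, the chromosome 13 and 3 shares were 0.0344 and 0.0593 and no longer passed, and genotype by medium over chromosome 3 was 0.17 and passed (exact permutation p = 0.02), as it did over member genes only (0.17). Over the whole chromosome 13 span the share was 0.0711 (exact permutation p = 0.30). The WENR genotype ratio over chromosome 3 turned to 7.56e-05 with −log10 q of at least 5. Over the gene alone 12 histone genes were lower in d4 ENR and 0 higher in AHR KO in WENR, and with 5 kb each side 2 were higher there.

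Leaving out each replicate in turn, the log2 ratios ranged from -0.44 to -0.35 (chromosome 13, medium), -0.37 to -0.34 (chromosome 3, medium), 0.25 to 0.44 and 0.26 to 0.30 (genotype in d4 ENR, chromosomes 13 and 3), -0.08 to -0.06 and -0.0233 to 0.0106 (genotype in WENR), 0.32 to 0.51 and 0.26 to 0.30 (genotype by medium), and 0.24 to 0.32 and 0.25 to 0.39 (shares). Genotype in WENR over chromosome 3 turned positive (0.01) without WT WENR replicate 2 or AHR KO WENR replicate 2, and genotype by medium there passed without WT WENR replicate 1 (0.30, exact permutation p = 0.05). Histone genes lower in d4 ENR numbered 37 to 47, those higher in AHR KO 33 to 54 in d4 ENR (54 without WT d4 ENR replicate 3) and 1 to 8 in WENR (8, 5, 3 and 5 without WT WENR replicates 1 and 2 and AHR KO WENR replicates 2 and 3), and those with a peak in every library 61 to 62. The cause of these changes was not tested. Without counts per region, a difference too small to move a peak's edge cannot be seen.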
